A study of Homo sapiens with 30 samples.

Results

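This report describes 8 genes of hexose uptake, out of 24462 gene symbols counted: the facilitative transporters SLC2A1, SLC2A2, SLC2A3, SLC2A5 and SLC2A14, the sodium-coupled transporter SLC5A1, and the arrestin-like proteins TXNIP and ARRDC4. They were taken by symbol from every count table. The set was chosen by a measured value, the far lower level of SLC2A3 in SETDB1-hairpin than in scramble Caco2 cells. The difference of SETDB1-hairpin from scramble Caco2 cells is therefore described without a test. The tests concern the other comparisons.

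Gene expression was counted in 30 libraries of 3 human colorectal cancer cell lines with QuantSeq, a 3′ tag method whose counts do not scale with transcript length, in 10 groups of 3. In Caco2, cells with a retroviral hairpin against the histone H3 lysine 9 methyltransferase SETDB1 were sorted as KRT20-positive or KRT20-negative, KRT20 being a keratin of mature gut epithelium. Their counterparts carried a scrambled hairpin and grew in differentiation medium (10 uM troglitazone, an agonist of PPARG, and 25 nM 1α,25-dihydroxyvitamin D3, the ligand of VDR) or in vehicle. The HCT116 and SW480 groups are KRT-positive and KRT-negative sorted cells with the SETDB1 hairpin, and unsorted cells. All transduced cells were selected with puromycin. The labels give neither the medium of the hairpin and unsorted cells nor the hairpin, if any, of the unsorted cells, nor the number of hairpins or clones. They also do not say whether replicates were separate cultures, so p-values measure only the spread between these libraries, which may be technical. Against unsorted cells, the hairpin and the sort cannot be told apart. The scramble Caco2 labels name no sort, so the same holds for SETDB1-hairpin against scramble Caco2 cells.

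Glucose enters cells mainly through the SLC2A (GLUT) facilitative transporters. SLC2A1 is the widespread one, SLC2A3 is a high-affinity transporter best known from neurons and raised in many tumours, and SLC2A14 is its close duplicate, known mainly from testis. In the small intestine, SLC5A1 takes up glucose with sodium and SLC2A5 takes up fructose at the brush border, and SLC2A2 passes both to the blood. TXNIP binds thioredoxin and promotes the removal of glucose transporters from the cell surface, and its relative ARRDC4 also limits glucose uptake. Both genes are induced by glucose through the factors MLXIP (MondoA) and MLXIPL (ChREBP), which act with MLX.

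Library totals ran from 5349737 to 10221854 counts. Levels are CPM (counts scaled to the library total) with TMM factors set within each line, and 3 counts, the limit that a count of 0 allows, are 0.293 to 0.561 CPM (counting error only). SETDB1 itself was lower in all 6 SETDB1-hairpin Caco2 libraries than in all 6 scramble libraries, at 19.7 to 26.1 CPM in KRT20-positive and 19.5 to 23.8 CPM in KRT20-negative cells, against 32.1 to 37.9 CPM in differentiation medium and 28.9 to 32.2 CPM in vehicle. In SW480, SETDB1 averaged 4.02 CPM in KRT-positive and 13.2 CPM in KRT-negative cells, against 28.9 CPM in unsorted cells. Neither difference was called (edgeR adjusted p = 0.5235 KRT-positive and 0.938 KRT-negative). The SW480 library labelled KRT-negative replicate 1 had 36.1 CPM of SETDB1, above every unsorted library. In HCT116, SETDB1 averaged 17.8 CPM in KRT-positive and 2.90 CPM in KRT-negative cells, against 53.4 CPM in unsorted cells. The difference was called in KRT-negative (edgeR adjusted p = 0.0424) but not in KRT-positive cells (0.407). The HCT116 libraries labelled KRT-positive replicates 2 and 3, at 19.9 and 31.3 CPM, were above unsorted replicate 3, at 16.8 CPM. KRT20, the sort marker, averaged 32.9 CPM in KRT20-positive and 1.30 CPM in KRT20-negative Caco2 cells, and 57.7 CPM in KRT-positive and 0.222 CPM in KRT-negative SW480 cells, but in HCT116 it had counts in only 1 KRT-positive library. The spread between replicates was far larger in HCT116 and SW480 than in Caco2. Libraries of HCT116 and SW480 also fell into a GC and an AT class by the sign of their count trend with gene GC content, and values with that class as a term are given below. Caco2 libraries split by that sign too, but no such fit was run there. The highest Caco2 Spearman correlations with GC content were 0.213 (KRT20-negative replicate 3) and 0.18 (differentiation medium replicate 2). VIL1, a marker of gut epithelium, was at 0 in every HCT116 library, and CDX1, another, was at 0 in every HCT116 and SW480 library and at most 0.304 CPM in Caco2. Of the other epithelial markers, EPCAM, CDH1, KRT8, KRT18, KRT19 and CDX2 had counts in all 10 groups.

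The sequences just upstream of TXNIP and ARRDC4 are shown because both genes are known to be induced by glucose. The sugar-responsive element known from TXNIP is a pair of E-box-like motifs, CACGNG or its reverse complement CNCGTG on either strand, with 5 bases between them. TXNIP lies on chromosome 1 (145992435 to 145996600, minus strand) and ARRDC4 on chromosome 15 (97960698 to 97973838, plus strand; GENCODE 29, GRCh38). The 250 bases before each RefSeq transcription start (GRCh38.p14) run 5′ to 3′ below, from chr1:145996580-145996829 on the minus strand and chr15:97960453-97960702 on the plus strand, with every such motif in capitals.
TXNIP: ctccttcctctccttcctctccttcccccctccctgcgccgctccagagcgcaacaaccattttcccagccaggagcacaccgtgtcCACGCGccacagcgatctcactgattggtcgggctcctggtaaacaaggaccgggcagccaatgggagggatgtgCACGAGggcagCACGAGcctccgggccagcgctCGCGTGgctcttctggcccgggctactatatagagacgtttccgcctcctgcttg
ARRDC4: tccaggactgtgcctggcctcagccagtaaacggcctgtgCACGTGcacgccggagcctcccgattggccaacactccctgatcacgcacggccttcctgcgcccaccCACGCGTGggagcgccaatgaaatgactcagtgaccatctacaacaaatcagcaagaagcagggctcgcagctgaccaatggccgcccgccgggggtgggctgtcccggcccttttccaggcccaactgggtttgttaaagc
The TXNIP stretch held 4 motifs, of which both copies of CACGAG formed the pair with 5 bases between them, ending 71 bases before the start. ARRDC4 held 3 motifs, of which 1 was the full palindrome CACGTG and the other 2 overlapped, and no pair at that spacing. Among 35116 RefSeq promoters of 300 bases (250 before to 50 after the start), 0.0769% held such a pair on either strand, 30.5% a single motif and 7.26% CACGTG. Of the other members, 5 had an entry in that table, and SLC2A5 held 1 motif while SLC2A14, SLC2A1, SLC2A2 and SLC5A1 held none. A second RefSeq start of TXNIP also held none. These matches describe letters and not binding.

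SLC2A3 was the most abundant member in scramble Caco2 cells, and nearly all of it was missing from the SETDB1-hairpin cells. It had 68.8, 77.0 and 88.0 CPM in KRT20-positive and 163, 148 and 169 CPM in KRT20-negative SETDB1-hairpin cells, against 1569.5, 1515 and 1568.5 CPM in scramble cells in differentiation medium and 2287.5, 2384 and 2257 CPM in vehicle. No library of 1 group overlapped another group. Against vehicle, the mean was 29.6-fold lower in KRT20-positive cells (log2 fold change −4.89, SE 0.09) and 14.4-fold lower in KRT20-negative cells (log2 −3.85, SE 0.08). Against differentiation medium it was 19.9-fold lower in KRT20-positive and 9.70-fold lower in KRT20-negative cells. These values chose the gene and carry no test. In these comparisons edgeR called 37.7% (KRT20-positive) and 36.2% (KRT20-negative) of all 13968 tested genes against vehicle (adjusted p at most 0.05), and 34.5% and 38% against differentiation medium. In bulk samples, fewer cells with a transcript and less of it per cell cannot be told apart.

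Markers of other cell types were set beside these groups. The 6 enterocyte markers were FABP1, APOA1, SI, ALPI, ANPEP and SLC15A1. Their summed level was 2728 to 2923 CPM in KRT20-positive and 2012 to 2198 CPM in KRT20-negative cells. It was 427 to 442 CPM in differentiation medium and 498 to 509 CPM in vehicle. In all 4 groups the sum came mostly from FABP1 and APOA1. Among the low markers, mean SI and ANPEP were higher in both fractions than in either scramble group. Mean ALPI and SLC15A1 were above vehicle in both fractions but below differentiation medium. The KRT20-negative libraries overlapped vehicle for ALPI (1.6 to 3.54 against 1.69 to 2.02 CPM) and SLC15A1 (5.27 to 7.49 against 5.68 to 6.88 CPM). They also did for ANPEP, at 2.51 to 17.3 CPM against 2.21 to 3.09 CPM. For ALPI, both fractions overlapped differentiation medium. The 12 fibroblast markers, all with counts in every Caco2 group, summed to 146 to 172 CPM in KRT20-positive and 143 to 881 CPM in KRT20-negative cells, against 82.6 to 97.6 CPM in differentiation medium and 55.7 to 63.9 CPM in vehicle. The highest value came from KRT20-negative replicate 3, whose SLC2A3 level (169 CPM) was close to those of replicates 1 and 2. In KRT20-positive cells most of the fibroblast difference from vehicle was COL6A1, averaging 102 CPM against 20.1 CPM. Mean COL3A1, DCN, POSTN and PDGFRB were lower there than in vehicle. The 4 neuron markers summed to at most 1.35 CPM in every Caco2 library. The 6 leukocyte markers summed to 99.9 to 105 CPM in KRT20-positive and 70.6 to 77.2 CPM in KRT20-negative cells, against 75.1 to 80.8 CPM in differentiation medium and 66.5 to 74.9 CPM in vehicle, mostly from LYZ, while PTPRC was at most 0.685 CPM in any Caco2 library. The part of the enterocyte and fibroblast markers in the SLC2A3 result was not tested.

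**Figure D1:**
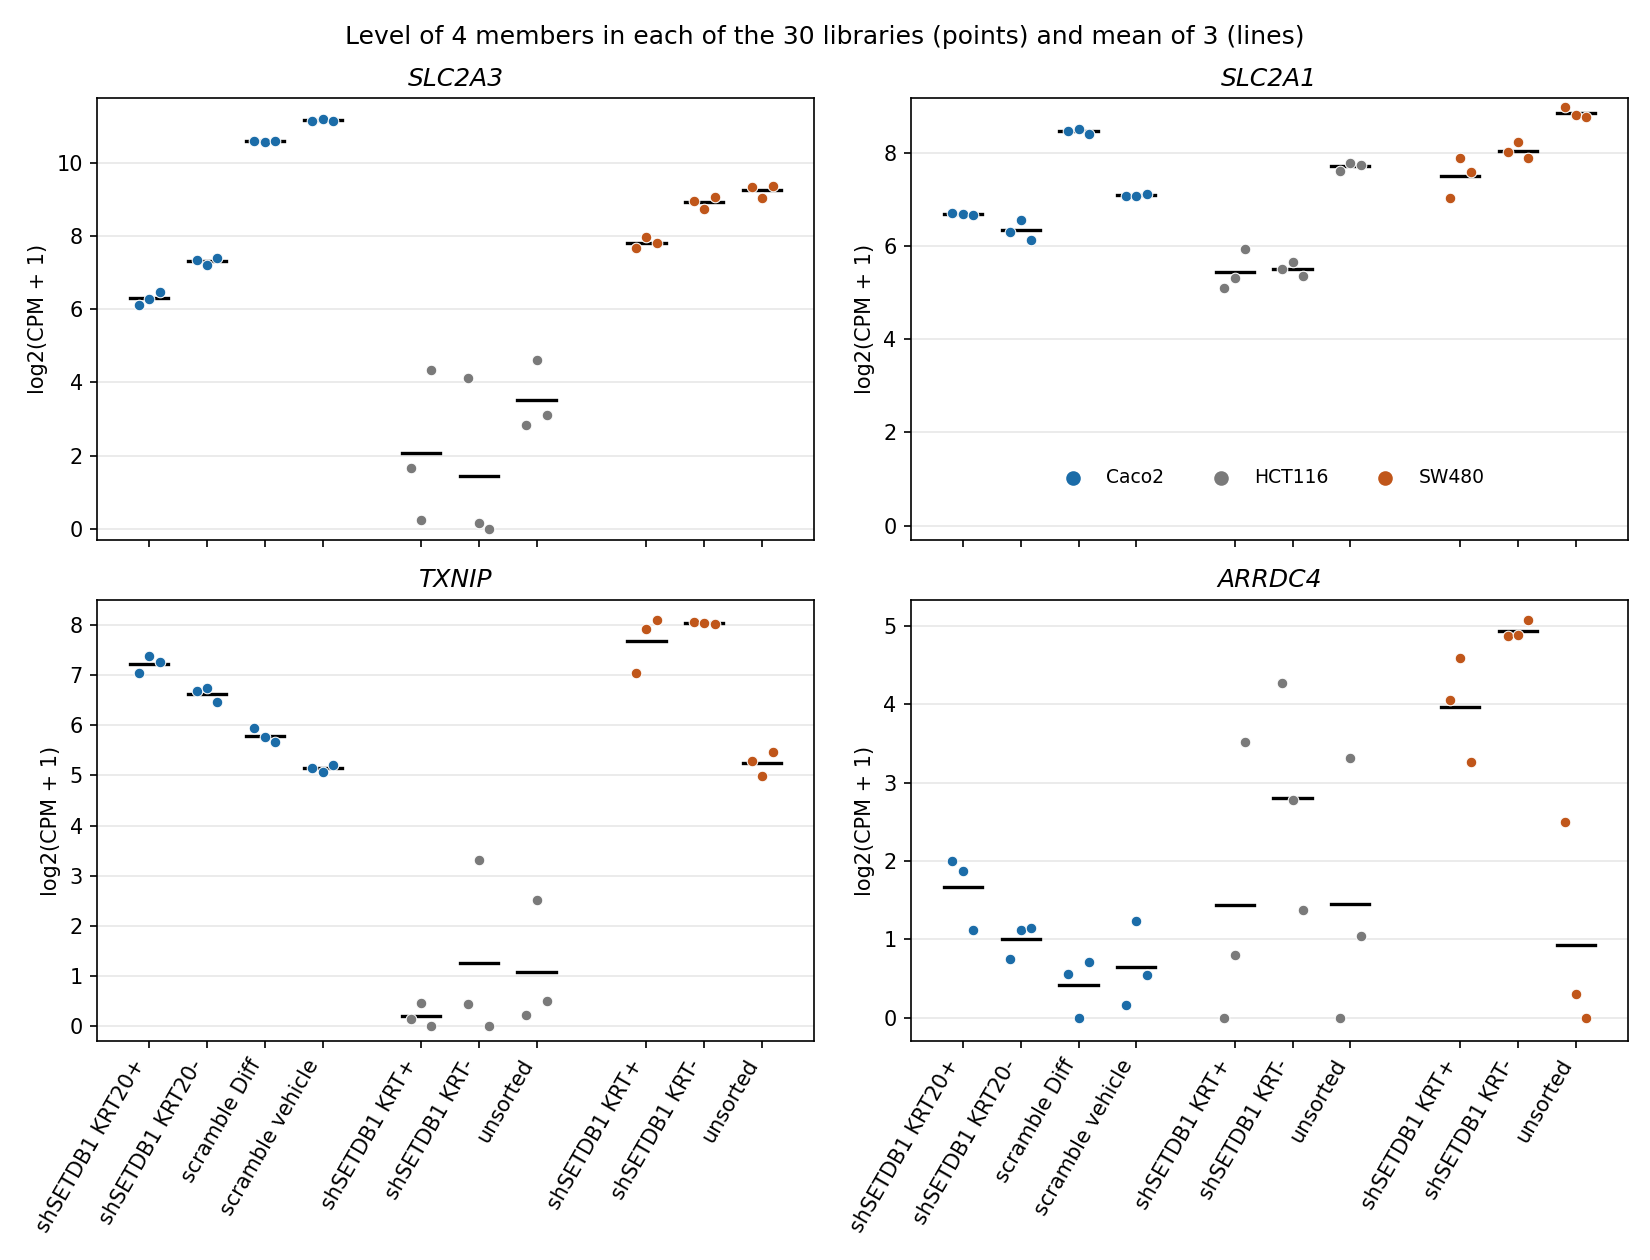
Level of SLC2A3, SLC2A1, TXNIP and ARRDC4 in each of 30 libraries, as log2(CPM + 1) on the vertical axis, with SETDB1-hairpin groups left of their scramble or unsorted counterparts within each line. Points are libraries and black lines are means of the 3 log2 values. SLC2A3 separates the 4 Caco2 groups without overlap, SLC2A1 separates unsorted HCT116 and SW480 cells from both sorted fractions, and TXNIP does so in SW480.

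SLC2A14 lies beside SLC2A3 on chromosome 12 (7812512 to 7891148 and 7919230 to 7936275, both on the minus strand, GENCODE 29, GRCh38), and tags from sequence that they share could have been assigned to either. Of the 50-base words in SLC2A3 transcripts of GENCODE 29, 15.3% also occur in SLC2A14 transcripts. That share was taken over whole transcripts, while the tags come from 3′ ends, so it is not the share of tags concerned. How the authors' counting treated shared tags is not given in the sources used here. SLC2A14 had 10.8, 9.95 and 12.2 CPM in KRT20-positive and 13.1, 13.2 and 12.4 CPM in KRT20-negative cells, against 46.9, 42.6 and 47.5 CPM in differentiation medium and 65.6, 73.7 and 72.7 CPM in vehicle. Its order over the groups was that of SLC2A3, with smaller differences of 6.43-fold (KRT20-positive) and 5.48-fold (KRT20-negative) against vehicle. SLC2A14 therefore made up 12.4% (SD 1.07) of the counts of both genes in KRT20-positive and 7.49% (SD 0.702) in KRT20-negative cells, against 2.86% (SD 0.112) in differentiation medium and 2.97% (SD 0.167) in vehicle. With both genes summed, the log2 fold change against vehicle was −4.74 in KRT20-positive and −3.78 in KRT20-negative cells.

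**Figure D2:**
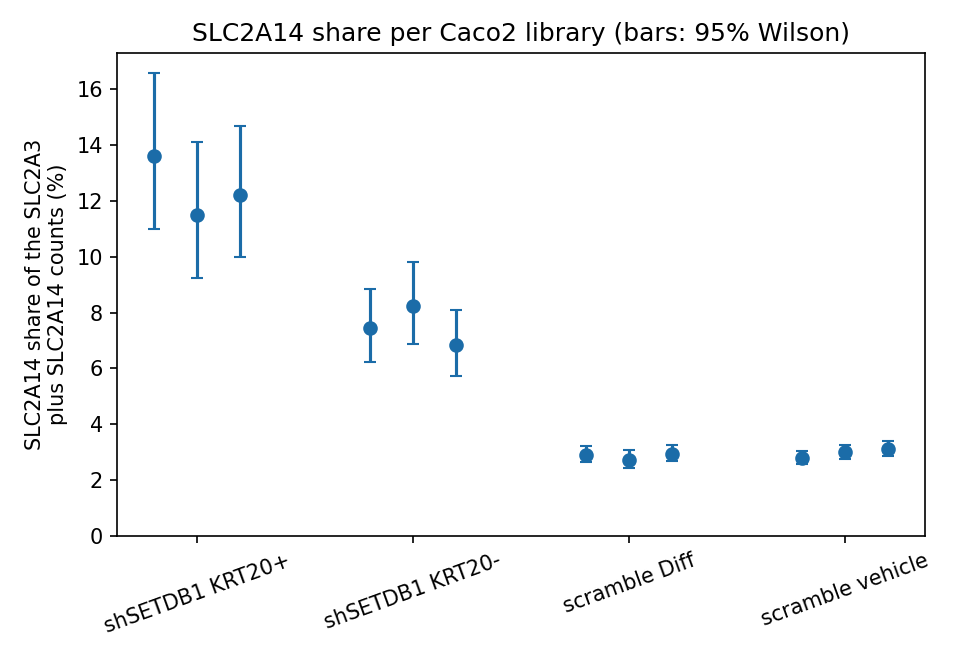
Share of SLC2A14 in the summed counts of SLC2A3 and SLC2A14, in percent, in each Caco2 library, with 95% Wilson intervals (counting error only). The SETDB1-hairpin libraries run from 11.5% to 13.6% (KRT20-positive) and 6.82% to 8.22% (KRT20-negative), all above the scramble libraries at 2.73% to 3.12%.

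SLC2A1 and TXNIP differed less than SLC2A3 in the same comparison. SLC2A1 had 104, 102 and 101 CPM in KRT20-positive and 78.3, 93.7 and 69.0 CPM in KRT20-negative cells, against 353, 361 and 338 CPM in differentiation medium and 134, 134 and 138 CPM in vehicle. Its mean was 1.32-fold (KRT20-positive) and 1.69-fold (KRT20-negative) lower than in vehicle, with no overlap. TXNIP ran the other way, with 130, 165 and 151 CPM in KRT20-positive and 102, 105 and 87.0 CPM in KRT20-negative cells, against 60.4, 53.3 and 49.8 CPM in differentiation medium and 34.3, 32.4 and 36.1 CPM in vehicle. Its mean was 4.34-fold (KRT20-positive) and 2.86-fold (KRT20-negative) higher than in vehicle, again with no overlap. ARRDC4, the relative of TXNIP, stayed low at 2.28 CPM (SD 0.973) in KRT20-positive and 1.02 CPM (SD 0.295) in KRT20-negative cells, against 0.372 CPM (SD 0.334) in differentiation medium and 0.643 CPM (SD 0.631) in vehicle.

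The intestinal hexose transporters stayed near the detection limit in Caco2. SLC2A2 had 2.09 CPM (SD 0.410) in KRT20-positive and 1.73 CPM (SD 0.663) in KRT20-negative cells, against 1.28 CPM (SD 0.112) in differentiation medium and 2.11 CPM (SD 0.983) in vehicle, and vehicle overlapped both sorted fractions. SLC2A5 gave 5 counts over the 3 KRT20-positive and 2 over the 3 KRT20-negative libraries, against 10 in differentiation medium and 25 in vehicle. SLC5A1 gave 1 count in KRT20-positive and 0 in KRT20-negative libraries, against 23 in differentiation medium and 14 in vehicle. Taking 3 counts over the KRT20-negative group, SLC5A1 was at least 5.62-fold lower there than in vehicle.

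Other genes of hexose handling were counted from lists drawn up with earlier results of these data known. Among 23 tested glycolysis genes, 2 were called higher and 12 lower in KRT20-positive cells against vehicle, and 1 higher and 14 lower in KRT20-negative cells, where 19.3% of all tested genes were called higher and 18.4% lower (KRT20-positive), and 18.6% and 17.6% (KRT20-negative). Their median log2 fold change was −0.295 in KRT20-positive and −0.332 in KRT20-negative cells, beside medians of 0.00762 and 0.0143 over all genes. Among those called lower was PFKP, a phosphofructokinase, at 23.9 CPM in KRT20-positive and 20.8 CPM in KRT20-negative cells, against 45.2 CPM in vehicle. MLXIPL, which activates TXNIP, stood at 64.1 CPM in KRT20-positive and 86.9 CPM in KRT20-negative cells, against 37.0 CPM in vehicle. Of 11 TXNIP partners and regulators 2 were called higher and 3 lower in KRT20-positive cells, and 2 higher and 4 lower in KRT20-negative cells. MLX, with which MLXIPL acts, was called lower, at 35.9 CPM in KRT20-positive and 40.0 CPM in KRT20-negative cells, against 52.5 CPM in vehicle. ITCH and TXN2 were also called lower in both fractions. ARRDC3, another arrestin-like gene, stood at 45.8 CPM in KRT20-positive and 45.4 CPM in KRT20-negative cells, against 23.4 CPM in vehicle. Other hexose transporters gave 2 calls higher and 2 lower of 10 in each fraction. SORD, the sorbitol dehydrogenase gene, averaged 176 CPM in KRT20-positive and 211 CPM in KRT20-negative cells, against 118 CPM in vehicle. Of 12 hypoxia targets 6 were higher in each fraction, with 2 lower in KRT20-positive and 0 lower in KRT20-negative cells.

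Between the 2 sorted fractions of SETDB1-hairpin Caco2 cells, SLC2A3 was lower and TXNIP higher in KRT20-positive cells. This comparison was not the one that chose the genes, but its libraries are the SETDB1-hairpin ones whose low SLC2A3 level did. Its calls are therefore not independent of that choice. In it, edgeR's quasi-likelihood test called 3 of 6 tested members, beside 4.08% of all tested genes. SLC2A3, whose 3 KRT20-positive libraries all lay below the 3 KRT20-negative ones, fell by 1.04 (log2 units, SE 0.08, edgeR adjusted p = 9.11e-09). TXNIP, with all KRT20-positive libraries above all KRT20-negative ones, rose by 0.60 (SE 0.10, edgeR adjusted p = 0.000404). SLC2A1 rose by 0.35 (SE 0.09, edgeR adjusted p = 0.0234), a call lost with only these 2 groups in the fit (0.126). It was also lost without KRT20-negative replicate 1 (edgeR adjusted p = 0.0630) or 3 (0.0696), or without KRT20-positive replicate 1 (0.0983), 2 (0.0735) or 3 (0.0747). SLC2A14 (log2 −0.23, edgeR adjusted p = 0.400), ARRDC4 (1.14, 0.313) and SLC2A2 (0.27, 0.817) were not called. SLC2A5 and SLC5A1 were too low to test.

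The lists of other genes were read beside the 4.08% of all tested genes called between these fractions. Of the 23 glycolysis genes 1 rose, HKDC1, a hexokinase-like gene, at 269 CPM in KRT20-positive and 202 CPM in KRT20-negative cells (edgeR adjusted p = 0.00213). Of 12 hypoxia targets 2 rose, the stress-response gene NDRG1 at 462 CPM in KRT20-positive and 295 CPM in KRT20-negative cells (edgeR adjusted p = 4.92e-06) and the carbonic anhydrase CA12 at 15.7 and 9.62 CPM in the same order (edgeR adjusted p = 0.0470). Of 11 TXNIP partners and regulators 1 fell, MLXIPL, by 0.44 in log2 units (edgeR adjusted p = 0.0275). None of 10 other hexose transporters was called.

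Differentiation medium raised SLC2A1 and TXNIP and lowered SLC2A3 and SLC2A14 in scramble Caco2 cells. This comparison asks what the PPARG and VDR ligands did without SETDB1 depletion, and it shares its vehicle libraries with the comparison that chose the genes. edgeR's quasi-likelihood test called 4 of 6 tested members, beside 20.9% of all 13968 tested genes, and all 4 calls held under every alternative tried in which the gene was tested on its own. With the library values given above, SLC2A1 was 2.59-fold higher in differentiation medium (log2 1.37, SE 0.09, edgeR adjusted p = 5.53e-11). TXNIP rose by 0.67 on the log2 scale (SE 0.11, edgeR adjusted p = 9.60e-05). SLC2A3 fell by 0.57 (SE 0.07, edgeR adjusted p = 4.50e-06) and SLC2A14 by 0.63 (SE 0.10, edgeR adjusted p = 8.07e-05). In each of the 4 the libraries in differentiation medium did not overlap those in vehicle. ARRDC4 (log2 −0.68, edgeR adjusted p = 0.615) and SLC2A2 (−0.69, 0.298) were not called. SLC2A1 thus stood highest of the 4 Caco2 groups in differentiation medium, where TXNIP was intermediate.

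Some glycolysis and hypoxia genes also rose in this medium. Of 23 tested glycolysis genes 10 rose and 0 fell, beside 10.4% of all tested genes called higher and 10.5% lower, and their median log2 fold change was 0.232, beside −0.00487 over all genes. SLC16A3, which exports lactate, averaged 30.4 CPM in differentiation medium and 6.88 CPM in vehicle (edgeR adjusted p = 4.21e-09). PFKP averaged 70.8 CPM in differentiation medium and 45.2 CPM in vehicle (edgeR adjusted p = 4.52e-05). HKDC1 averaged 377 CPM in differentiation medium and 265 CPM in vehicle (edgeR adjusted p = 4.54e-05). Of 12 hypoxia targets 6 rose and 0 fell, led by NDRG1 at 210 CPM in differentiation medium and 69.2 CPM in vehicle (edgeR adjusted p = 9.10e-13) and the collagen hydroxylase P4HA1 at 86.3 and 51.5 CPM in the same order (edgeR adjusted p = 2.74e-06).

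Of 11 TXNIP partners and regulators 0 rose and 3 fell in differentiation medium, beside 10.4% of all tested genes called higher and 10.5% lower. MLXIPL averaged 18.2 CPM in differentiation medium and 37.0 CPM in vehicle (edgeR adjusted p = 6.60e-06), and its relative MLXIP 68.0 CPM in differentiation medium and 85.8 CPM in vehicle (edgeR adjusted p = 0.00474). Also lower was TXN2, the mitochondrial thioredoxin, at 93.4 CPM in differentiation medium and 115 CPM in vehicle (edgeR adjusted p = 0.00893). Among 10 other hexose transporters 1 rose and 1 fell, close to those shares. SLC2A9, a urate and hexose carrier, rose by 1.30 in log2 units (edgeR adjusted p = 0.00568) and SLC5A9, a sodium-coupled transporter, fell by 1.27 (edgeR adjusted p = 0.00155). AKR1B1, aldose reductase, rose by 1.09 (edgeR adjusted p = 2.85e-06).

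In SW480, TXNIP was several-fold higher in both sorted SETDB1-hairpin fractions than in unsorted cells, while SLC2A1 and SLC2A3 were lower in the KRT-positive fraction. TXNIP had 131, 241 and 272 CPM in KRT-positive and 265, 260 and 257 CPM in KRT-negative cells, against 38.0, 30.5 and 43.0 CPM in unsorted cells. Each of the 6 sorted libraries lay above each unsorted one, and KRT-positive replicate 1 was the lowest of the 6. TXNIP rose by 2.53 on the log2 scale in KRT-positive (SE 0.30, edgeR adjusted p = 0.000404) and by 2.81 in KRT-negative cells (SE 0.30, edgeR adjusted p = 0.000261). Without the library labelled KRT-negative replicate 1, the KRT-negative value was 2.80 (edgeR adjusted p = 0.00135). Among libraries of the GC class alone, which leaves out replicate 2 of each group, the values were 2.31 (KRT-positive, edgeR adjusted p = 0.0183) and 2.69 (KRT-negative, edgeR adjusted p = 0.0142). The 4 neuron markers, mostly SYT1, also differed between these groups, summing to 115 to 150 CPM in KRT-positive and 142 to 186 CPM in KRT-negative cells, against 39.2 to 90.5 CPM in unsorted cells. The 6 leukocyte markers, with CD3E at 0 throughout, summed to 7.51 to 34.1 CPM in KRT-positive and 20.5 to 33.4 CPM in KRT-negative cells, against 3.97 to 13 CPM in unsorted cells. Of these, CD68 averaged 10.3 CPM in KRT-positive and 14.9 CPM in KRT-negative cells, against 1.40 CPM in unsorted cells. PTPRC averaged 0.00 CPM in KRT-positive and 0.469 CPM in KRT-negative cells, against 0.039 CPM in unsorted cells. The 12 fibroblast markers, with THY1 and PDGFRB at 0 throughout, summed to 112 to 146 CPM in KRT-positive and 139 to 148 CPM in KRT-negative cells, against 60 to 142 CPM in unsorted cells. COL6A1 was the largest part, averaging 86.1 CPM in KRT-positive and 109 CPM in KRT-negative cells, against 46.9 CPM in unsorted cells. Mean COL1A2, COL6A2, COL6A3 and DCN were lower in both fractions than in unsorted cells. The part of these lists was not tested.

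ARRDC4 followed TXNIP in SW480 at a lower level. It had 15.5, 22.95 and 8.597 CPM in KRT-positive and 28.1, 28.3 and 32.7 CPM in KRT-negative cells, against 4.64, 0.234 and 0.00 CPM in unsorted cells. No sorted library overlapped an unsorted one, and the mean was 9.67-fold (KRT-positive) and 18.3-fold (KRT-negative) higher. Neither difference was called (edgeR adjusted p = 0.233 and 0.182), where unsorted replicate 1, the highest unsorted library, decides: without it the fitted values were 6.94 (KRT-positive, edgeR adjusted p = 0.0334) and 7.87 (KRT-negative, edgeR adjusted p = 0.0266). DESeq2 called the KRT-negative difference (adjusted p = 0.0114). Of 11 TXNIP partners and regulators 1 rose in KRT-positive and 2 in KRT-negative cells, and 0 fell, beside 3.47% (KRT-positive) and 2.12% (KRT-negative) of all tested genes called. ARRDC3 rose by 2.05 in KRT-positive (edgeR adjusted p = 0.00841) and by 3.56 in KRT-negative cells (edgeR adjusted p = 0.000323), at 45.1 CPM in KRT-positive and 129 CPM in KRT-negative cells, against 10.9 CPM in unsorted cells. MLXIP, MLXIPL and MLX were not called in either fraction.

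SLC2A1 and SLC2A3 fell in the KRT-positive SW480 fraction. SLC2A1 had 129, 235 and 192 CPM in KRT-positive and 258, 301 and 236 CPM in KRT-negative cells, against 505, 449 and 438 CPM in unsorted cells. The unsorted libraries were the highest and no group overlapped another, though the sorted fractions were barely apart (235.4 against 236.3 CPM). Scaled by library totals alone, the fractions overlapped. KRT-positive replicate 2 (245.4 CPM) then lay above KRT-negative replicates 1 (238.9 CPM) and 3 (230.1 CPM). SLC2A1 fell by 1.32 on the log2 scale in KRT-positive cells (SE 0.24, edgeR adjusted p = 0.00841), and by 1.56 among the GC class libraries alone (edgeR adjusted p = 0.0185). In KRT-negative cells the value was −0.81 (SE 0.24, edgeR adjusted p = 0.119), which was called with the replicate block (0.0449), with only these 2 groups (0.0367), with GC class as a term (0.0315) and by DESeq2 (0.0182). SLC2A3 had 203, 252 and 222 CPM in KRT-positive and 500, 425 and 537 CPM in KRT-negative cells, against 650, 531 and 663 CPM in unsorted cells. The KRT-positive libraries lay apart from all the others, while KRT-negative replicate 3 was above unsorted replicate 2. SLC2A3 fell by 1.45 in KRT-positive cells (SE 0.20, edgeR adjusted p = 0.00120; 1.63 among the GC class libraries alone, 0.00366), and its value of −0.34 in KRT-negative cells was not called (SE 0.20, edgeR adjusted p = 0.546).

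edgeR thus called 3 of 5 tested members in KRT-positive SW480 cells against unsorted cells, beside 3.47% of all 13252 tested genes, and 1 of 5 in KRT-negative cells, beside 2.12%. In the KRT-positive against the KRT-negative fraction it called 1 of 5, beside 0.445%: SLC2A3 fell by 1.11 (SE 0.20, edgeR adjusted p = 0.0272), and by 1.29 among the GC class libraries alone (0.0490). That call was lost with only these 2 groups in the fit (edgeR adjusted p = 0.0930), without KRT-negative replicate 1 (0.130) or 3 (0.167), and without KRT-positive replicate 1 (0.0968) or 3 (0.0751). TXNIP (log2 −0.28, edgeR adjusted p = 0.862) and SLC2A1 (−0.52, 0.448) were not called. SLC2A14 was uneven within groups, with 0.00, 7.09 and 10.3 CPM in KRT-positive and 8.65, 4.89 and 20.3 CPM in KRT-negative cells, against 27.2, 9.94 and 19.7 CPM in unsorted cells, and was called in no SW480 comparison. SLC2A2 gave 3 counts in 1 KRT-positive library and 0 in the other SW480 libraries. SLC2A5 gave 0 in all 9, and SLC5A1 gave 0 in KRT-positive and 5 in KRT-negative cells, against 15 in unsorted cells, each time from 1 library.

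**Figure D3:**
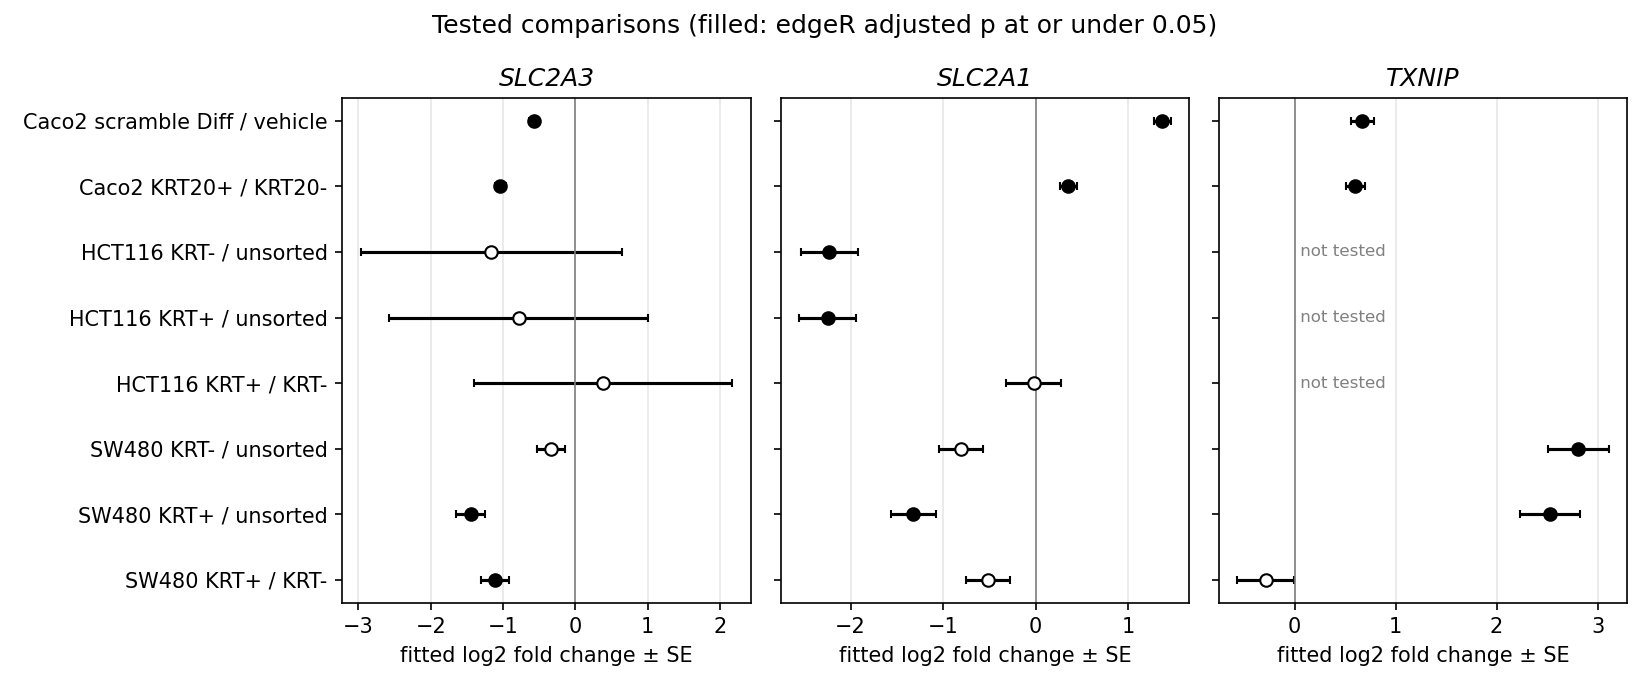
Fitted log2 fold changes of SLC2A3, SLC2A1 and TXNIP in the 8 tested comparisons, each given as first group over second group, with horizontal bars of 1 SE. Filled points were called by edgeR, and TXNIP was too low to test in HCT116. SLC2A1 is positive in both Caco2 comparisons and negative in the HCT116 and SW480 fractions against unsorted cells, while TXNIP is positive where it was called.

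In HCT116, SLC2A1 was the only member called, and it was lower in both sorted fractions than in unsorted cells. It had 33.03, 39.0 and 60.4 CPM in KRT-positive and 44.7, 49.8 and 39.7 CPM in KRT-negative cells, against 196, 220 and 213 CPM in unsorted cells. All 6 sorted libraries lay below the 3 unsorted ones, and the 2 sorted fractions overlapped. edgeR called 1 of 4 tested members against unsorted cells in each fraction, beside 9.28% (KRT-positive) and 5.26% (KRT-negative) of all 13279 tested genes. SLC2A1 fell by 2.25 on the log2 scale in KRT-positive cells (SE 0.31, edgeR adjusted p = 0.000265) and by 2.23 in KRT-negative cells (SE 0.31, edgeR adjusted p = 0.000418). With GC class as a term the values were −2.24 (KRT-positive, edgeR adjusted p = 0.000122) and −2.24 (KRT-negative, edgeR adjusted p = 0.000196), and among the AT class libraries alone the KRT-positive value was −2.24 (edgeR adjusted p = 0.0002). The 12 fibroblast markers, with THY1 at 0 throughout, summed to 172 to 245 CPM in KRT-positive and 156 to 208 CPM in KRT-negative cells, against 98.9 to 133 CPM in unsorted cells. These sums came mostly from COL1A1 and COL6A1, while mean COL5A1, DCN and PDGFRB were lower in both fractions than in unsorted cells. The 6 leukocyte markers, with CD14 at 0 throughout and CD3E at 0 in both sorted fractions, summed to 13.4 to 45.3 CPM in KRT-positive and 36.3 to 54.1 CPM in KRT-negative cells, against 6.4 to 22.7 CPM in unsorted cells. CD68 was the largest part, averaging 19.6 CPM in KRT-positive and 34.0 CPM in KRT-negative cells, against 5.39 CPM in unsorted cells. PTPRC ran the other way, at 2.40 CPM in KRT-positive and 0.00 CPM in KRT-negative cells, against 4.78 CPM in unsorted cells. The part of either list was not tested. Between the fractions edgeR called 0 of 4 members (SLC2A1 log2 −0.02, SE 0.30, edgeR adjusted p = 0.994), beside 0.55% of all genes. For the 4 members the unadjusted p-values there were 0.567 or more.

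The other members were near the floor in most HCT116 libraries. SLC2A3 had 2.15, 0.187 and 19.3 CPM in KRT-positive and 16.5, 0.108 and 0.00 CPM in KRT-negative cells, against 6.18, 23.3 and 7.68 CPM in unsorted cells, and single libraries set the group means. TXNIP had 0.107, 0.374 and 0.00 CPM in KRT-positive and 0.369, 8.998 and 0.00 CPM in KRT-negative cells, against 0.163, 4.74 and 0.426 CPM in unsorted cells. ARRDC4 had 0.00, 0.748 and 10.42 CPM in KRT-positive and 18.3, 5.85 and 1.59 CPM in KRT-negative cells, against 0.00, 8.90 and 1.07 CPM in unsorted cells. For these genes the groups overlapped, and SLC2A3 (edgeR adjusted p = 0.881 KRT-positive and 0.842 KRT-negative) and ARRDC4 (0.983 and 0.835) were not called. SLC2A14, SLC2A2, SLC2A5 and SLC5A1 had counts in 4, 1, 1 and 5 of the 9 libraries.

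Some glycolysis genes also fell in HCT116. Of 23 tested, 0 rose and 11 fell in KRT-positive cells and 0 rose and 9 fell in KRT-negative cells against unsorted cells, beside 4.26% (KRT-positive) and 2.82% (KRT-negative) of all genes called higher and 5.02% and 2.44% lower. Enolase ENO1 averaged 416 CPM in KRT-positive and 1248 CPM in unsorted cells (edgeR adjusted p = 8.54e-05), and PGK1, phosphoglycerate kinase, 129 CPM in KRT-negative and 304 CPM in unsorted cells (edgeR adjusted p = 0.00568). Of 13 hypoxia targets 2 rose in each fraction, VEGFA, an angiogenic factor, and P4HA1, and 1, NDRG1, fell in KRT-positive cells. VEGFA rose to 104 CPM in KRT-positive (edgeR adjusted p = 0.0431) and 170 CPM in KRT-negative cells (edgeR adjusted p = 0.0101), against 32.9 CPM in unsorted cells. In SW480, of the same 23 glycolysis genes 0 rose and 1 fell in KRT-positive cells (LDHB, a lactate dehydrogenase, log2 −1.47, edgeR adjusted p = 0.00617), and 1 rose and 0 fell in KRT-negative cells (HK2, a hexokinase, log2 1.75, edgeR adjusted p = 0.0112). Of 13 tested hypoxia targets 2 rose in each SW480 fraction, ADM, a vasodilator peptide, and CA12, beside 3.47% (KRT-positive) and 2.12% (KRT-negative) of all genes called in either direction there. Of the TXNIP partners and regulators in HCT116, TXN, thioredoxin, fell in KRT-positive cells (278 against 533 CPM in unsorted cells, edgeR adjusted p = 0.0372) and ARRDC3 rose in KRT-negative cells (62.0 against 17.4 CPM, edgeR adjusted p = 0.0442). None of the other hexose transporters (7 tested in HCT116, 6 in SW480) was called in these lines.

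**Figure D4:**
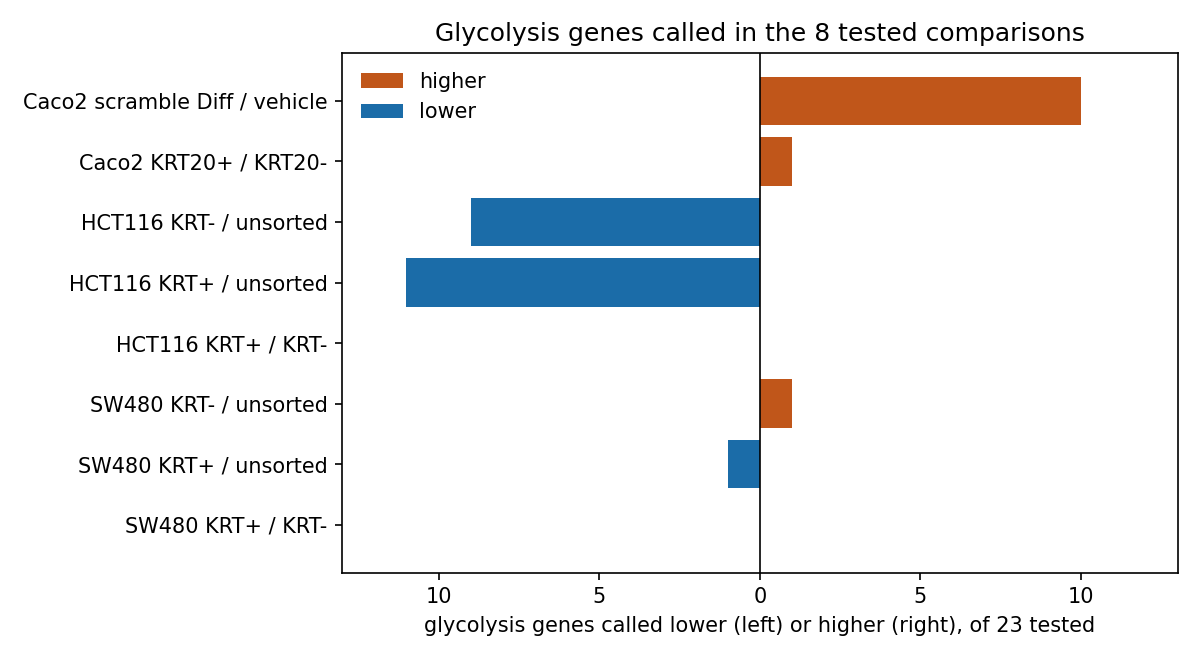
Number of glycolysis genes, of 23 tested, called higher (right of 0) or lower (left of 0) by edgeR in each of the 8 tested comparisons, first group over second group. The bars reach 10 higher in Caco2 differentiation medium and 11 and 9 lower in the HCT116 fractions against unsorted cells, and at most 1 in the others.

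Lines were compared in joint fits of 2 lines, chosen after seeing the data. The difference of KRT-positive from KRT-negative cells in SLC2A1 was larger in Caco2 than in SW480 by 0.91 on the log2 scale (SE 0.24, edgeR adjusted p = 0.0454), with values of 0.35 in Caco2 and −0.52 in SW480, beside 2.93% of 15339 genes called. This rests on scaling and on single libraries, as given in the closing section. For SLC2A3 in the same comparison the difference between lines was 0.11 (SE 0.17, edgeR adjusted p = 0.868), with falls of 1.04 in Caco2 and 1.11 in SW480, and for TXNIP it was 0.92 (SE 0.29, edgeR adjusted p = 0.0976). The SLC2A1 value against unsorted cells was less negative in SW480 than in HCT116 by 1.44 in KRT-negative cells (SE 0.36, edgeR adjusted p = 0.0532, beside 1.03% of 14851 genes called) and by 0.91 in KRT-positive cells (SE 0.36, edgeR adjusted p = 0.271, beside 1.08%), neither called.

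Set side by side over the 10 groups, SLC2A3 ran from 2309 CPM in Caco2 vehicle through 1551 CPM in Caco2 differentiation medium to 615 CPM in unsorted SW480, 487 CPM in KRT-negative SW480 and 226 CPM in KRT-positive SW480. Below these came 160 and 77.9 CPM in KRT20-negative and KRT20-positive Caco2 SETDB1-hairpin cells and 12.4, 7.21 and 5.53 CPM in unsorted, KRT-positive and KRT-negative HCT116. Unsorted and KRT-negative SW480 overlapped, as did the 3 HCT116 groups. SLC2A1 was highest in unsorted SW480 (464 CPM), followed by Caco2 differentiation medium (351 CPM), KRT-negative SW480 (265 CPM) and unsorted HCT116 (210 CPM), with KRT-positive SW480 (185 CPM) overlapping its neighbours. It was lowest in KRT-negative (44.7 CPM) and KRT-positive (44.1 CPM) HCT116, which overlapped. TXNIP was highest in KRT-negative (261 CPM) and KRT-positive (214 CPM) SW480, which overlapped each other. KRT-positive SW480 also overlapped KRT20-positive Caco2 SETDB1-hairpin cells (149 CPM). All HCT116 groups were at or under 3.12 CPM. The order of SLC2A1, SLC2A3 and TXNIP was identical with factors computed over all 30 libraries.

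Over the 12 Caco2 libraries, log2(CPM + 1) of SLC2A3 had Pearson correlations of 0.987 with SLC2A14, −0.965 with TXNIP and 0.675 with SLC2A1. Among 9422 genes averaging 10 CPM or more, the 5 most like SLC2A3 were the membrane protein gene TMEM98 (r = 0.994), the lipoprotein receptor gene LRP8 (0.991), TYMS, thymidylate synthase (0.991), the membrane protein gene EMP2 (0.990) and the tubulin gene TUBB6 (0.990). The 5 most like TXNIP were PRR15L (r = 0.989), GALC, galactosylceramidase (0.989), CRYL1, crystallin lambda 1 (0.988), LCT, lactase (0.988), and AKR1C1, an aldo-keto reductase (0.982). LCT, the brush-border enzyme that splits lactose, averaged 136 CPM in KRT20-positive and 47.8 CPM in KRT20-negative cells, against 14.5 CPM in differentiation medium and 2.76 CPM in vehicle. These correlations are descriptions: the 12 libraries form 4 groups, and any gene ordered alike over the groups scores high.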

How the data were processed

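The hg19 build and the tools Bowtie2 and edgeR are named, without versions, per the submitters' processing notes. The counter and its handling of tags shared by SLC2A3 and SLC2A14 are not given in the sources used here. The authors deposited 1 table of raw counts per gene symbol for each library (25737 lines). Lines of 286 repeated symbols were summed, none of them a member. Each line was fitted on its own with edgeR 4.0.16 (R 4.3.3; filterByExpr, TMM factors, quasi-likelihood test, Benjamini-Hochberg over all genes tested, called at an adjusted p of 0.05). Depth was 5349737 to 10221854 counts. Same-numbered Caco2 libraries (numbers from the sample titles) deviated from their group means together, with correlations of 0.241, 0.216 and 0.143 between the KRT20 fractions and 0.148, 0.334 and 0.236 between the scramble groups, all over 0.1, so the numbers were taken to pair them there. Over all pairs of Caco2 groups these correlations ran from 0.0466 to 0.339, and 12 of 12 libraries were closest to their own number. Alternatives were RLE factors, library totals, no low-count filter, a replicate block, DESeq2 1.42.0, only the 2 groups, SLC2A3 and SLC2A14 summed, and each library left out. GC class fits and tests between lines were added after seeing the data. Members and lists were chosen with earlier results of these data known. All members were named, with up to 4 genes of smallest adjusted p per list and comparison, and the 5 genes most like SLC2A3 and TXNIP. LCT levels and MLXIPL, MLXIP and MLX in SW480 were chosen after seeing values. One result of the fructose and polyol list is not reported here, so that list is given without counts.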

Additional observations from a re-analysis of the deposited data

Results flagged for a closer look

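For SLC2A1, the change in KRT-positive against KRT-negative cells differed between Caco2 and SW480 by 0.9059 on the log2 scale (SE 0.24, edgeR adjusted p = 0.0454), with all KRT20-positive libraries above the KRT20-negative ones in Caco2 and all KRT-positive libraries below the KRT-negative ones in SW480. The SW480 fractions were barely apart (235.4 against 236.3 CPM) and overlapped when scaled by library totals alone. The result came up because a test of the difference between the lines passed its threshold. Of 14 alternatives 9 lost the call, with adjusted p-values over all 14 of 0.00528 to 0.119.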

How the results depend on the processing

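Alternatives were run for the 28 tested log2 fold changes with a mean of at least 10 CPM in either group, not for lower ones. Of their 389 values, 364 kept direction and side of the threshold, 11 lost a call, 7 gained one and 7 turned sign. In KRT-negative against unsorted SW480 cells 1 member was called, against 2 with the replicate block, 3 with DESeq2, 2 with only these 2 groups and 2 with GC class as a term, and 1 to 2 with a library left out (2 without unsorted replicate 1). In KRT-positive against KRT-negative SW480 cells 1 was called, against 0 with only these 2 groups and 0 to 1 with a library left out. Sign turned for SLC2A3 in KRT-positive against unsorted HCT116 cells without unsorted replicate 2 (0.0546; range over alternatives −3.40 to 0.0546). It also turned for SLC2A1 in KRT-positive against KRT-negative HCT116 cells (0.001375 with RLE factors, 0.16 with library totals, 0.001316 with DESeq2, and −0.31 to 0.15 with a library left out, 0.06 without KRT-negative replicate 2 and 0.06 without KRT-positive replicate 2), and for the SLC2A3 difference between Caco2 and SW480 (−0.01297 with library totals). For SLC2A1 between Caco2 and SW480, RLE factors gave 0.84 (edgeR adjusted p = 0.0583), library totals 0.78 (0.0836), and the call was lost without KRT20-positive Caco2 replicate 1, 2 or 3, KRT20-negative replicate 1 or 3, or KRT-negative SW480 replicate 1 or 2. The causes were not tested. In both tested Caco2 comparisons, where replicate numbers pair the libraries, the block changed no member's call (4 in differentiation medium and 3 between fractions with and without it). In HCT116 and SW480 the numbers were not taken to pair libraries, since same-numbered libraries correlated at −0.105 to 0.278 and 0.0324 to 0.328 and 3 of 9 and 6 of 9 were closest to their own number. The SW480 range was close to that of Caco2 (0.0466 to 0.339). In each SW480 group, replicate 2 alone was of the AT class, so whether the numbers pair SW480 libraries was not settled. Among members, the block in HCT116 and SW480 changed only the SLC2A1 call in KRT-negative SW480 cells counted above. Genes called over the whole table, main against the range over other settings, were 2925 (2735 to 3746) for differentiation medium, 570 (307 to 803) between Caco2 fractions, 1232 (1158 to 2009) and 698 (471 to 1296) for KRT-positive and KRT-negative HCT116, 73 (45 to 463) between them, 460 (228 to 1368) and 281 (122 to 827) in SW480, and 59 (18 to 502) between the SW480 fractions. The share called higher moved under other scalings from 45.9% to as much as 63.8% (HCT116 KRT-positive against unsorted), 30.1% to 49.3% (between HCT116 fractions) and 50.8% to 63.5% (between SW480 fractions). At these depths SLC2A5 was too low to test in any line, SLC2A2 in HCT116 and SW480, and SLC5A1 in Caco2 and SW480. SLC2A14 and TXNIP were too low to test in HCT116.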
